A study of Arabidopsis thaliana with 18 samples.

Results

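The transcripts of 8 phi class glutathione S-transferase genes of Arabidopsis thaliana were followed through leaf maturation in wild-type plants and in plants that overexpress the kinase PINOID (PID). The genes are GSTF2 (AT4G02520), GSTF3 (AT2G02930), GSTF6 (AT1G02930), GSTF7 (AT1G02920), GSTF8 (AT2G47730), GSTF9 (AT2G30860), GSTF10 (AT2G30870) and GSTF11 (AT3G03190). They were taken by locus identifier, 8 of the 28642 loci in the deposited tables, and 7 of them had enough reads to be tested. GSTF3 did not.

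Glutathione S-transferases join the tripeptide glutathione to reactive small molecules, and several of them also reduce organic peroxides or carry hydrophobic ligands without changing them. The phi class is one of the large plant classes. Its members are known for their response to herbicides, pathogens, salicylic acid and oxidative stress, and a few have assigned places in plant metabolism, such as the synthesis of camalexin or glucosinolates.

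The first leaf pair was sampled from P10 and P21, lines that carry the PID cDNA behind the constitutive 35S promoter of cauliflower mosaic virus, and from the wild type Col-0 (WT), on days 9 and 16 counted from stratification (DAS). The labels give the growth stage as proliferation at 9 DAS and expansion at 16 DAS. All plants grew on sterile half-strength MS medium with sugar in long days and received no treatment. Of 18 labelled libraries, 16 were analysed, 3 for P10 and 3 for WT at each day and 2 for P21, because P21 replicate 1 was not analysed here at either day. The libraries held 1193042 to 4695692 unique gene reads. Unless stated otherwise, levels are CPM, unique gene reads scaled to a common library size with TMM factors. Calls of higher or lower come from edgeR's quasi-likelihood test over 16499 genes and needed both an adjusted p below 0.05 and an absolute log2 fold change above 0.75. Nothing in the labels ties libraries to separately grown cultures, so p-values measure the spread between these libraries.

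PID itself followed the labels. It was at 446 to 522 CPM in P10, 939.8 to 961 in P21 and 4.73 to 5.92 in WT at 9 DAS, and at 748 to 882 in P10, 368 and 631 in P21 and 3.19 to 4.22 in WT at 16 DAS. Leaf mesophyll markers were abundant in every library. Of 4 meristem markers WUS had no read in any library, and their summed level was 1.25 to 8.98 CPM at 9 DAS and at most 0.396 CPM at 16 DAS. The sum of 3 root markers at 9 DAS was 94.6 to 106 CPM in P10 and 82.3 to 111 in P21, against 203 to 218 in WT. SUC2, the companion cell marker, was at 58.9 to 75.7 CPM in P10 and 78.1 to 78.6 in P21 at 9 DAS, against 33.1 to 58.3 in WT, and was called higher in P21 than in WT (log2 0.83, adjusted p = 0.0155). SUC2 at 16 DAS was at 407 to 503 CPM in P10 and 212 to 273 in P21, against 328 to 358 in WT. At 16 DAS the summed level of 5 mesophyll markers was 36810 to 45130 CPM in P10, 61610 to 64320 in P21 and 51190 to 61870 in WT, so P10 lay below the others. The sum of 2 guard cell markers at 16 DAS was 31.3 to 36.9 CPM in P10, 51.8 to 55.6 in P21 and 46.2 to 63.3 in WT. Of these 2 markers 1 was called lower in P10 than in WT at that day (log2 -0.95). The part of all these markers in the results was not tested. Replicate 2 of P10 and of WT at 9 DAS stood apart from the other libraries in the clock genes: LHY was at 11.9 and 3.95 CPM there, against 67.1 to 451 in the remaining 9 DAS libraries. P10 and WT at 9 DAS carried one second library index, and the remaining libraries carried a different one. The index therefore cannot be told apart from genotype in P21 against WT and in P10 against P21 at 9 DAS, nor from age in P10 and in WT. It was shared in P10 against WT at 9 DAS, in P21 at both days and in all libraries at 16 DAS.

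The 8 genes include a pair of close copies on chromosome 1 and another split between chromosomes 2 and 4. GSTF6 and GSTF7 lie near each other on the same strand (TAIR10, chr1:661177-662456 and chr1:658657-659771), and their coding sequences are 94.7% identical. GSTF2 (chr4:1110452-1111660) and GSTF3 (chr2:851164-852222) are 94.5% identical. GSTF9 (chr2:13138997-13140245) and GSTF10 (chr2:13141357-13142613), also neighbours, are 77.6% identical, and the other pairs reach at most 78.6%. GSTF8 (chr2:19556326-19559463) and GSTF11 (chr3:735028-735987) have no such copy. The encoded proteins are 208 to 263 residues long, GSTF8 being the longest. All sequences below were read from the TAIR10.1 genome of RefSeq, whose nuclear chromosomes are those of TAIR10.

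How far close copies can be told apart by 50-base reads depends on the stretches they share. The longest run common to GSTF6 (coding bases 310 to 425, chr1:661565-661680, minus strand) and GSTF7 (coding bases 313 to 428, chr1:659088-659203, minus strand) is 116 bases long and lies within one exon of each gene. It is shown because a 50-base read from inside it, taken without its mate, fits both genes.
GSTF6 and GSTF7: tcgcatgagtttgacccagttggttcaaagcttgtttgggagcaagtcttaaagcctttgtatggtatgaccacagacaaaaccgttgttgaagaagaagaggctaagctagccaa

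For GSTF2 (chr4:1111076-1111260, minus strand, spanning an intron) and GSTF3 (chr2:851751-851824, minus strand) the longest common run covers 74 coding bases, 163 to 236 in each gene.
GSTF2 and GSTF3: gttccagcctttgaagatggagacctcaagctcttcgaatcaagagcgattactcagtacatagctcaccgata

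Of all 50-base words in the coding sequence, 17.3% of those of GSTF6 and 17.2% of those of GSTF7 also occur in the other copy, and 5.93% of those of GSTF2 and of GSTF3. The other 4 genes have no shared word. Summed over the libraries, 449 of 3128 reads of GSTF6 (14.3%) and 18 of 139 reads of GSTF7 (12.9%) mapped to more than one place, against 10 of 1586 for GSTF2, 48 of 8605 for GSTF8 and none for GSTF3, GSTF9, GSTF10 and GSTF11. Unique reads, which leave the shared ones out, were used for every test. One other locus, AT2G47720, lies within the region of GSTF8 on the same strand, and it had no unique read.

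The 300 bases before the RefSeq gene start are printed for GSTF7, the member with the fewest reads among the tested genes and one of those that rose with age in P21 and WT. The window is chr1:659981-660280, on the minus strand and written 5′ to 3′ towards the gene. Capitals mark TTGAC, the core of the W-box bound by WRKY factors, or its reverse complement GTCAA.
GSTF7: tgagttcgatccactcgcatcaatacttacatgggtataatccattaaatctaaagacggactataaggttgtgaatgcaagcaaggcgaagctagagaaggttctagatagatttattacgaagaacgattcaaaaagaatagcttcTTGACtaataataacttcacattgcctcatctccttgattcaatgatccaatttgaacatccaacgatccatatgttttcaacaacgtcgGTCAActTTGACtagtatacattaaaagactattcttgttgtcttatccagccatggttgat

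This window held 3 matches to TTGAC on either strand, starting 152, 62 and 55 bases before the gene start, and those of GSTF2, GSTF3 and GSTF10 held 1 each. The core is common: 50.4% of the 27443 windows of protein-coding genes hold it. TGACG, the core of as-1 and ocs elements, was searched on both strands too and was found in GSTF3, GSTF8 and GSTF10, 1 match each, against 21.3% of all windows. GSTF9 and GSTF11 matched neither motif, nor the G-box CACGTG, which 7.1% of windows hold.

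Per kilobase of gene region (RPKM, from total reads with the shared ones), GSTF9 was the most abundant of the 8 genes in every group, with mean RPKM between 230.4 in P21 at 16 DAS and 448 in P21 at 9 DAS, and its range never met that of the next gene. GSTF9 alone gave 40.4 to 62.4% of the summed CPM of the 8 genes. In WT at 9 DAS it was followed by GSTF10 and GSTF8, at 71.9 and 54.0 RPKM with overlapping ranges, then by GSTF6 and GSTF2, at 18.6 and 14.7 RPKM and also overlapping, by GSTF11 at 5.19 RPKM, and by GSTF3 and GSTF7 at or near 0. The order was not fixed. GSTF6 stood in second place in P21 at 9 DAS (210 RPKM, above the range of GSTF10) and below GSTF8, GSTF10 and GSTF2 in P21 and WT at 16 DAS (8.80 and 8.07 RPKM), while GSTF2 stood between 13.7 and 14.7 RPKM in all groups at 9 DAS and reached 61.8 RPKM in P21 and 49.4 in WT at 16 DAS. RPKM here divides by the whole gene region with its introns, and the region of GSTF8 is 3138 bases long against 960 to 1280 for the others, so its level per length is the least comparable.

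**Figure D1:**
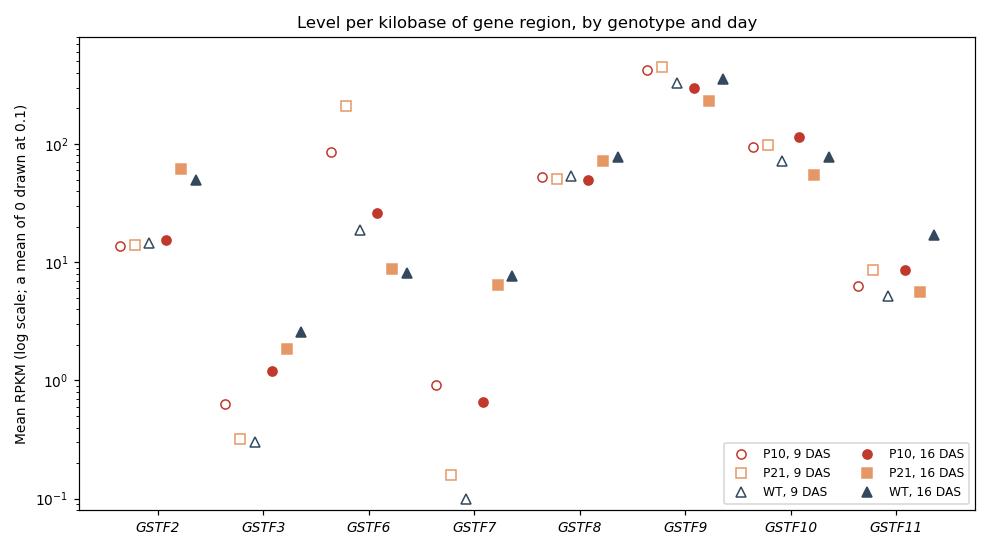
Mean RPKM of each of the 8 genes on a log axis, by genotype (P10 circles, P21 squares, WT triangles) and day (open 9 DAS, filled 16 DAS); a mean of 0 is drawn at 0.1. GSTF9 lies highest in every group, between 230.4 and 448 RPKM, and GSTF7 and GSTF6 spread most between groups on this axis.

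Summed over the 8 genes, the level at 9 DAS was 900 ± 65.3 CPM in P10 and 1047 ± 34.4 in P21, against 692 ± 37.0 in WT (SD, n = 3, 2 and 3). At 16 DAS it was 761 ± 120 CPM in P10 and 848 ± 17.04 in P21, against 1068 ± 115 in WT. Both lines thus lay above WT in the young leaf and below it in the older leaf, with no overlap between the libraries of a line and those of WT at either day. These sums carry no test.

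**Figure D2:**
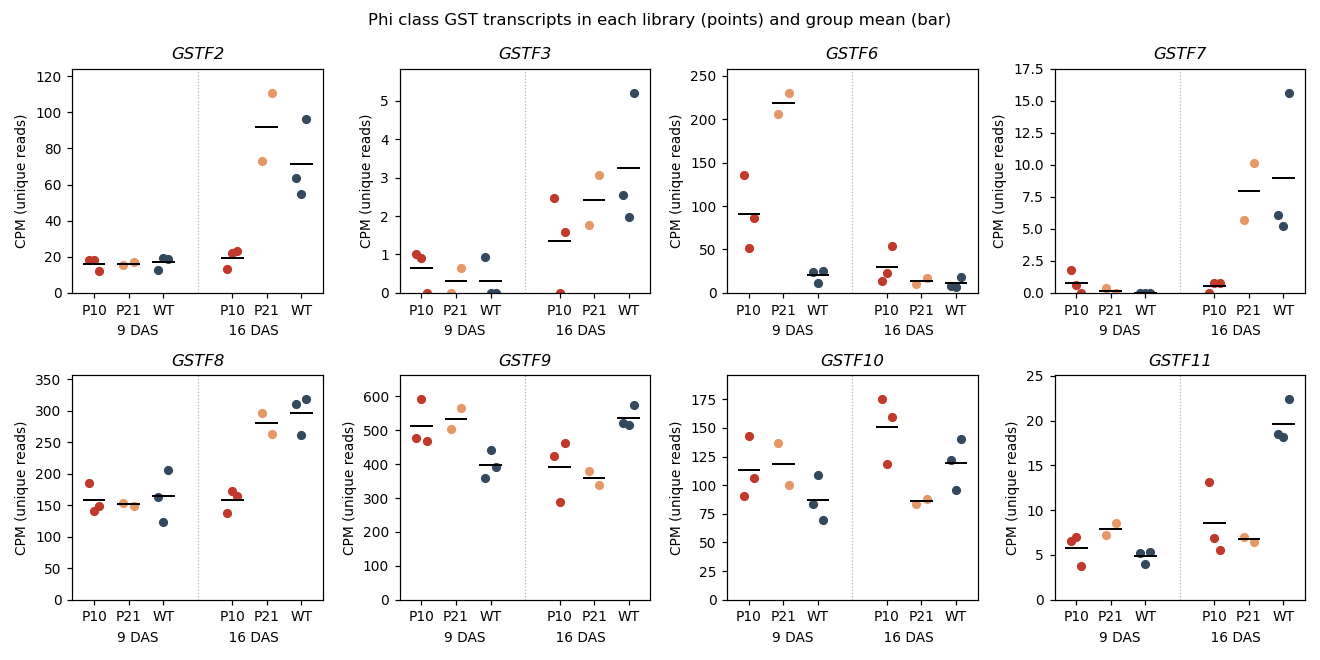
CPM of each gene in every library (points) and group mean (bars), P10, P21 and WT at 9 DAS on the left of each panel and at 16 DAS on the right; each panel has its own axis, starting at 0. GSTF2, GSTF7 and GSTF8 are high at 16 DAS in P21 and WT but not in P10, GSTF11 is highest in WT at 16 DAS, and GSTF6 is high in P21 and P10 at 9 DAS.

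The first question was how these genes changed as the leaf matured. In P10 none of the 7 tested genes was higher at 16 than at 9 DAS and only GSTF6 was lower. In P21, 3 were higher (GSTF2, GSTF7 and GSTF8) and 1 lower (GSTF6). In WT, 4 were higher (GSTF2, GSTF7, GSTF8 and GSTF11) and none lower. Among all genes tested, 31% were called in P10, 23.7% in P21 and 36% in WT, in either direction. GSTF7 passed the low-count filter through its reads at 16 DAS in P21 and WT alone, so its call there carries no weight of its own in these counts.

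GSTF2, known to bind auxin and other indole compounds in addition to its transferase activity, had the clearest change. It was at 13.1, 22.2 and 23.4 CPM in P10 at 16 DAS, against 18.0, 18.0 and 11.9 at 9 DAS. In P21 it was at 73.3 and 111 CPM at 16 DAS, against 15.2 and 17.1 at 9 DAS. In WT it was at 63.4, 54.9 and 96.1 CPM at 16 DAS, against 12.8, 19.2 and 19.0 at 9 DAS. The 9 DAS libraries of all genotypes lay within 11.9 to 19.2 CPM, and at 16 DAS the 3 P10 libraries overlapped that range while every P21 and WT library lay above 50 CPM. The change with age was 5.71-fold in P21 (log2 2.51, SE 0.30, adjusted p = 4.67e-06) and 4.09-fold in WT (log2 2.03, SE 0.25, adjusted p = 1.69e-06). In P10 the log2 fold change was 0.31 (SE 0.27, adjusted p = 0.396). At 16 DAS GSTF2 was 3.44-fold lower in P10 than in WT (log2 -1.78, SE 0.25, adjusted p = 4.98e-05) and 4.55-fold lower in P10 than in P21 (log2 -2.19, SE 0.26, adjusted p = 1.60e-05). In P21 against WT the log2 difference was 0.40 (SE 0.24, adjusted p = 0.678). All these calls held in all 27 alternative analyses.

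GSTF7, a copy of GSTF6 known to respond to pathogens and salicylic acid, had the same pattern at a far lower level. In P10 it had 0, 2 and 2 unique reads at 16 DAS and 7, 2 and 0 at 9 DAS. In P21 it had 13 and 33 reads at 16 DAS and 1 and 0 at 9 DAS. In WT it had 19, 21 and 21 reads at 16 DAS and none in any library at 9 DAS. Each P21 and WT library at 16 DAS exceeded every other library on the CPM scale, at 5.21 to 15.6 CPM. Pooled over the libraries of a group, the WT level at 16 DAS was at least 16.6-fold higher than the limit that 3 reads over the whole group would set at 9 DAS, and the pooled P21 ratio of 16 to 9 DAS was 50.3, from 46 reads against 1, with a 95% counting interval of 8.59 to 2031. GSTF7 entered the test only through the P21 and WT libraries at 16 DAS, where it was high, so its tests at that day and with age are descriptions. At 16 DAS it was lower in P10 than in WT (log2 -3.62, SE 0.79, adjusted p = 0.0030), 4 reads against 61, a pooled difference of 11.4-fold with a counting interval of 4.23 to 43.1. It was also lower in P10 than in P21 (log2 -3.60, SE 0.82, adjusted p = 0.0046), a call that was lost without P21 replicate 3 at 16 DAS (adjusted p = 0.0719). Counting intervals and floors cover counting error only.

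GSTF8, a stress-responsive transferase used as an early marker of defense signaling and made both with and without a plastid-targeting extension, followed GSTF2 with a smaller change. It was at 138, 173 and 166 CPM in P10 at 16 DAS, against 186, 142 and 149.7 at 9 DAS. In P21 it was at 297 and 263 CPM at 16 DAS, against 154 and 149 at 9 DAS. In WT it was at 312, 262 and 318 CPM at 16 DAS, against 163, 123 and 206 at 9 DAS. P21 and WT separated completely between the days and P10 did not. The change with age was 1.85-fold in P21 (log2 0.89, SE 0.21, adjusted p = 0.0033) and 1.80-fold in WT (log2 0.85, SE 0.17, adjusted p = 3.81e-04), and in P10 the fitted levels of the days were equal to within an SE of 0.17 on the log2 scale. At 16 DAS it was 1.86-fold lower in P10 than in WT (log2 -0.90, SE 0.17, adjusted p = 8.81e-04) and 1.76-fold lower in P10 than in P21 (log2 -0.81, SE 0.19, adjusted p = 0.0044). These changes sit close to the fold threshold: fitted on log2 RPKM, which lacks the TMM scaling, the largest of them was -0.66 (P10 against WT at 16 DAS) and none was called. The change in WT was 0.68 with upper-quartile factors, 0.68 with P10 and WT at 9 DAS limited to replicates 1 and 3 and 0.65 without WT replicate 2 at 9 DAS, all under the threshold on the log2 scale, and P10 against P21 was -0.74 without P10 replicate 1 and -0.73 without P21 replicate 2 at 16 DAS.

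GSTF11, an enzyme of the aliphatic glucosinolate pathway, where it is placed at the glutathione conjugation step together with the tau class enzyme GSTU20, was lower in the libraries of both lines than in those of WT in the older leaf. At 16 DAS it was at 13.1, 6.90 and 5.55 CPM in P10 and at 7.02 and 6.46 in P21, against 18.5, 18.1 and 22.4 in WT. At 9 DAS it was at 6.58, 7.01 and 3.76 CPM in P10 and at 7.23 and 8.57 in P21, against 5.20, 3.95 and 5.37 in WT. All line libraries at 16 DAS lay below the lowest WT library, and P10 replicate 1, the shallowest library, came nearest to it. GSTF11 was 2.44-fold lower in P10 than in WT at 16 DAS (log2 -1.29, SE 0.30, adjusted p = 0.0042). In P21 the fitted difference was of similar size, log2 -1.52 (SE 0.34), and did not pass the adjustment over all genes (adjusted p = 0.0810). It passed when only P21 and WT at 16 DAS were fitted (log2 -1.53, adjusted p = 0.0304) and with DESeq2 (log2 -1.54, adjusted p = 0.0430). It was not called in any fit that left out 1 library of P10 or of WT. With age GSTF11 was 3.94-fold higher in WT (log2 1.98, SE 0.31, adjusted p = 3.14e-05), while the log2 change was 0.38 in P10 (SE 0.33, adjusted p = 0.392) and -0.24 in P21 (SE 0.38, adjusted p = 0.680).

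The other 9 listed genes of aliphatic glucosinolate synthesis were all tested. In P10 against WT at 16 DAS 8 of them were lower and none higher, where 15.8% of all genes were called, with a median log2 fold change of -1.19 against 0.02 over all genes. CYP79F2 and CYP79F1, the first oxidases of the core pathway, were lower by log2 -1.996 (adjusted p = 0.0023) and -1.63 (adjusted p = 0.0243). In P21 against WT at 16 DAS none was called, where 0.127% of all genes were called, and the median was -1.14, against 0 over all genes. All 9 had an unadjusted p below 0.05 in that edgeR test. In P10 against P21 at 16 DAS none was called either (median -0.10), where 14.9% of all genes were called. With age 8 were higher in P10 (median 1.20), 5 in P21 (median 1.11) and 9 in WT (median 2.92), where 31%, 23.7% and 36% of all genes were called in P10, P21 and WT, whereas GSTF11 was called in WT alone. GSTU20 was lower in P10 than in WT at 16 DAS (log2 -1.52, SE 0.21, adjusted p = 6.07e-05). At that day it was at 121 to 275 CPM in P10 and 244 to 323 in P21, against 510 to 654 in WT. The P21 libraries thus also lay below WT, without a call.

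**Figure D3:**
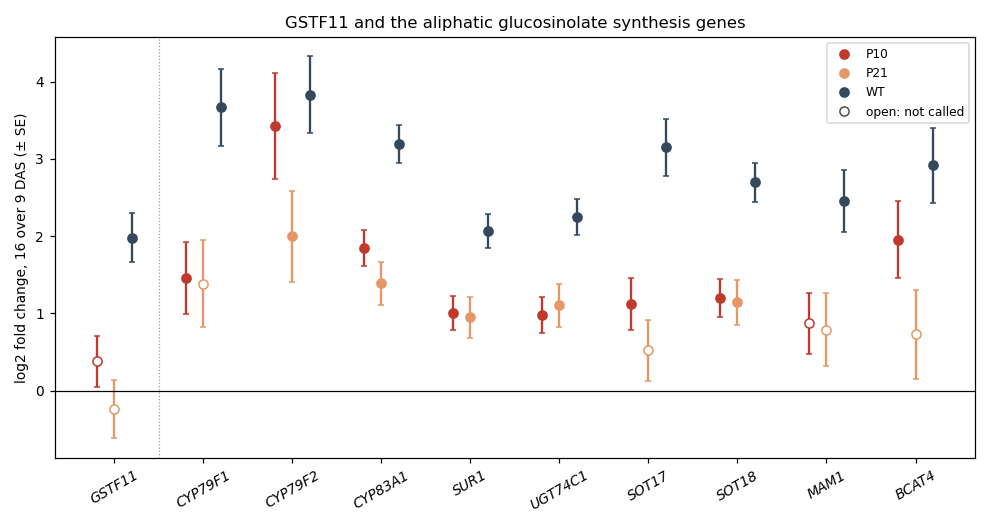
Log2 fold change of 16 over 9 DAS with SE of GSTF11 (left of the dotted line) and 9 other listed genes of aliphatic glucosinolate synthesis, in P10, P21 and WT. Open points were not called. The WT point is the highest of the 3 for every gene, and GSTF11 is at 0.38 in P10, -0.24 in P21 and 1.98 in WT.

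GSTF6, which conjugates glutathione to an indole intermediate of camalexin, the phytoalexin of Arabidopsis, was the only member called lower with age. At 16 DAS it was at 13.1, 23.0 and 53.5 CPM in P10, against 136, 51.2 and 85.8 at 9 DAS. In P21 it was at 9.65 and 16.6 CPM at 16 DAS, against 206 and 231 at 9 DAS. In WT it was at 7.33, 7.20 and 18.6 CPM at 16 DAS, against 24.6, 11.8 and 25.0 at 9 DAS. The days were far apart in P21 and overlapped in P10 and in WT. GSTF6 was 16.2-fold lower at 16 DAS in P21 (log2 -4.02, SE 0.67, adjusted p = 0.0012) and 2.92-fold lower in P10 (log2 -1.55, SE 0.50, adjusted p = 0.0302), a call lost without P10 replicate 1 or 3 at 9 DAS (adjusted p = 0.109 and 0.0523) or replicate 1 or 2 at 16 DAS (adjusted p = 0.0708 and 0.103). Without P10 replicate 3 at 16 DAS the change was -2.27 (adjusted p = 0.0065). In WT the log2 change was -1.09 (SE 0.62, adjusted p = 0.178).

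Between genotypes, the libraries of GSTF6 at 9 DAS did not overlap and lay in the order P21, P10, WT. It was higher in P21 than in WT by 3.40 on the log2 scale (SE 0.55, adjusted p = 0.0059), the only called member in that comparison, in which 5.39% of all genes were called. In P10 against WT, with 0.339% of all genes called and none of the members, the log2 difference was 2.14 (SE 0.52, adjusted p = 0.116). In P10 against P21 it was -1.26 (SE 0.50, adjusted p = 0.658), and no member was called there, against 0.0364% of all genes. Among 6 camalexin synthesis genes 4 were tested, and 2 of them were higher in P21 than in WT at 9 DAS: CYP79B2 (log2 1.93, adjusted p = 0.0113) and CYP71A13 (log2 1.71, adjusted p = 0.0414), which act before the step of GSTF6. None was called in P10 against WT at that day. The higher GSTF6 level in P21 was called in all 27 alternative analyses, also with P10 and WT at 9 DAS limited to replicates 1 and 3.

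At 16 DAS 4 of the 7 tested genes were lower in P10 than in WT (GSTF2, GSTF7, GSTF8 and GSTF11) and none higher, where 15.8% of all genes were called. GSTF7 carries no weight in the counts at this day either, since it was tested only because of its reads in P21 and WT, which leaves 3 of 6 lower in P10 than in WT. None was called in P21 against WT, where 0.127% of all genes were called. Both comparisons use the same WT libraries. In P10 against P21, 3 were lower (GSTF2, GSTF7 and GSTF8) and 1 higher (GSTF10), with 14.9% of all genes called. In these whole-leaf samples fewer cells that express a gene and less RNA of it per cell cannot be told apart. GSTF6 had a log2 difference of 1.68 in P10 against WT (SE 0.61, adjusted p = 0.0693) with overlapping libraries, and of 0.96 without P10 replicate 3 (adjusted p = 0.313).

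**Figure D4:**
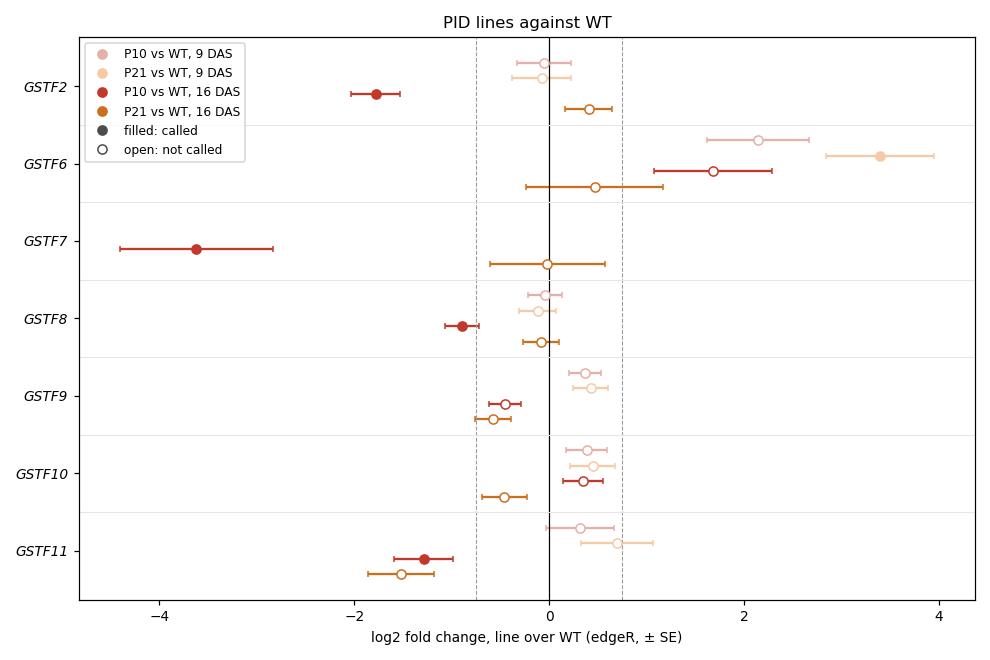
Log2 fold change with SE of the tested genes for P10 against WT and P21 against WT at 9 and 16 DAS, filled where called; GSTF7 is left out at 9 DAS, where WT had no read. At 9 DAS GSTF6 stands out, at 2.14 in P10 and 3.40 in P21, and at 16 DAS GSTF2 is at -1.78 in P10 and 0.40 in P21.

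GSTF9 and GSTF10, neighbours on chromosome 2, were not called between the days in any genotype, nor in either line against WT at either day. GSTF9, the most abundant member and an enzyme with glutathione peroxidase activity, was at 478, 591 and 469 CPM in P10 and 503 and 565 in P21 at 9 DAS, against 359, 442 and 393 in WT. At 16 DAS it was at 424, 289 and 462 CPM in P10 and 381 and 337 in P21, against 522, 517 and 574 in WT. Both lines lay above WT at 9 DAS and below it at 16 DAS without overlap, by log2 0.37 in P10 (adjusted p = 0.357) and 0.42 in P21 (adjusted p = 0.168) at 9 DAS, and by -0.46 in P10 (adjusted p = 0.0478) and -0.58 in P21 (adjusted p = 0.269) at 16 DAS. None of these passed both the p and the fold threshold. With age the log2 change was -0.39 in P10 (adjusted p = 0.0613), -0.57 in P21 (adjusted p = 0.0363) and 0.43 in WT (adjusted p = 0.0340), all under the fold threshold.

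GSTF10, first described as a dehydration-induced gene, was at 175, 118 and 159 CPM in P10 and 83.8 and 87.9 in P21 at 16 DAS, against 122, 95.6 and 140.1 in WT. At 9 DAS it was at 90.6, 143 and 107 CPM in P10 and 137 and 100.3 in P21, against 83.6, 109 and 69.8 in WT. At 16 DAS the P10 libraries lay above those of P21 and overlapped those of WT, and both P21 libraries lay below WT. GSTF10 was 1.75-fold higher in P10 than in P21 (log2 0.81, SE 0.24, adjusted p = 0.0198), a call lost without P10 replicate 1 or 3 (adjusted p = 0.0816 and 0.0627) or P21 replicate 2 or 3 (adjusted p = 0.115 and 0.119). Against WT it was not called in P10 (log2 0.34, adjusted p = 0.250) or P21 (log2 -0.46, adjusted p = 0.583).

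Whether a line differed from WT in its change with age was tested as an interaction. The change in P10 was lower than in WT for 5 of the 7 tested genes, where 4.7% of all genes were called in either direction. GSTF7 is among them but carries no weight in this count, since it was tested only because of its 16 DAS reads in P21 and WT. For GSTF2 the difference of the changes was -1.73 on the log2 scale (SE 0.37, adjusted p = 0.0102), and it was called in all 27 alternatives. For GSTF8 it was -0.85 (SE 0.24, adjusted p = 0.0460), for GSTF9 -0.82 (SE 0.23, adjusted p = 0.0430) and for GSTF11 -1.60 (SE 0.46, adjusted p = 0.0488), each close to the p threshold and lost in most alternatives, called in 8, 10 and 3 of 27. GSTF7 passed as well (adjusted p = 0.0162), but its fitted size depends on the prior count because WT had no read at 9 DAS, and without P10 replicate 1 at 9 DAS, which held 7 of its 9 reads there, it did not pass (adjusted p = 0.140). The change in P21 was lower than in WT for GSTF9 (-1.005, SE 0.26, adjusted p = 0.0354) and GSTF11 (-2.22, SE 0.50, adjusted p = 0.0185), 2 of 7, where 3.18% of all genes were called. Without either P21 library at 9 DAS, or without P21 replicate 3 at 16 DAS, neither was called (adjusted p from 0.0591 to 0.205). GSTF9 was called in 16 of 27 alternatives. Both interactions share the WT libraries. The library index changed with age in WT but not in P21, so it cannot be told apart from the difference between P21 and WT. In P10 the index changed as it did in WT.

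**Figure D5:**
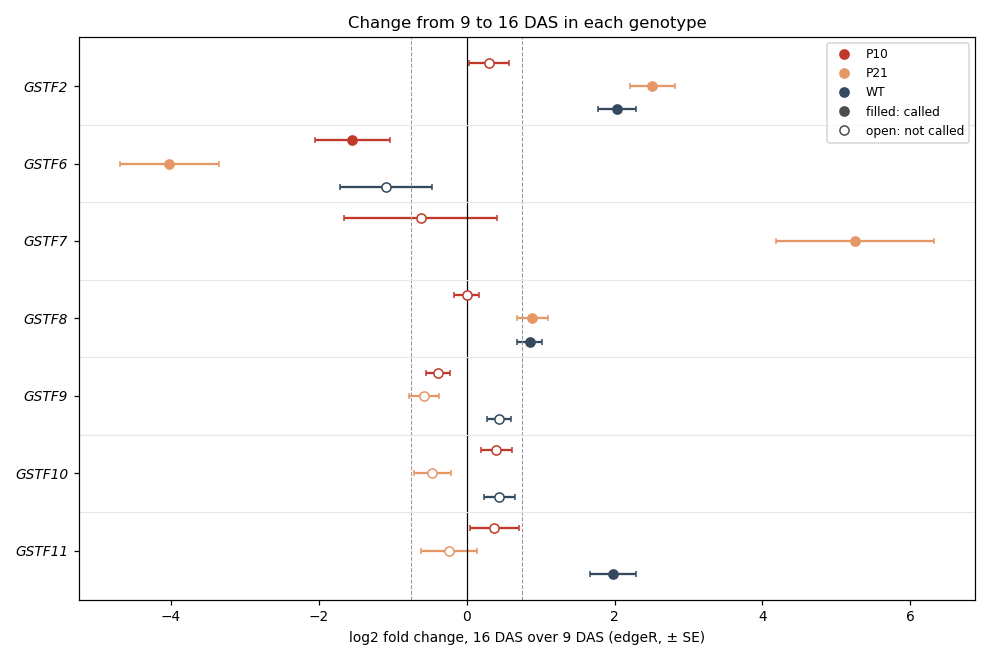
Log2 fold change of 16 against 9 DAS with SE for each tested gene in P10, P21 and WT, filled where called; GSTF7 in WT is left out because it had no read at 9 DAS. GSTF2 is at 0.31 in P10, 2.51 in P21 and 2.03 in WT, and GSTF11 is at 0.38, -0.24 and 1.98.

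GSTF3, the near copy of GSTF2, had 3, 0 and 4 unique reads in P10, 4 and 10 in P21 and 8, 8 and 7 in WT at 16 DAS. At 9 DAS it had 4, 3 and 0 reads in P10, 0 and 2 in P21 and 2, 0 and 0 in WT. Pooled over the libraries, its level at 16 DAS was 0.408 times that of WT in P10 (95% counting interval 0.148 to 0.981) and 0.936 times in P21 (0.445 to 1.90), and in WT it was 9.38 times its level at 9 DAS (2.32 to 82.1). The P10 interval at 16 DAS lies below 1 by counting error alone, with no allowance for the spread between libraries.

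Of 5 further phi genes 2 were tested. GSTF12 (AT5G17220, TT19), needed to bring anthocyanins into the vacuole, was at 149, 141 and 298 CPM in P10 and 2.19 and 6.46 in P21 at 16 DAS, against 5.10, 14.1 and 10.4 in WT. P10 thus lay far above both other genotypes, 19.6-fold above WT (log2 4.29, SE 0.58, adjusted p = 4.45e-04), the opposite direction to GSTF2, GSTF7, GSTF8 and GSTF11. At 9 DAS it was at 98.7, 39.3 and 52.6 CPM in P10 and 86.5 and 155 in P21, against 31.2, 16.3 and 40.8 in WT. GSTF4 (AT1G02950) was called only in P10 between the days, higher at 16 DAS (log2 2.07, adjusted p = 0.0121). The call rests on few unique reads. In P10 at 9 DAS 6 of 25, 1 of 8 and 3 of 4 GSTF4 reads were unique, and at 16 DAS 10 of 20, 13 of 32 and 7 of 14. Its RPKM in P10, from total reads, was 1.92 to 4.96 at 9 DAS and 3.92 to 12.3 at 16 DAS, which overlap. GSTF5, GSTF13 and GSTF14 stayed at or under 3.81 CPM and were not tested.

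The tau class, the other large plant class, had 15 of 28 genes tested. At 16 DAS GSTU20 and GSTU5 were lower in P10 than in WT, GSTU5 by log2 -1.25 (adjusted p = 5.65e-04), and none was higher. None was called in P21 against WT at that day, where 0.127% of all genes were called. With age 3 were higher and 1 lower in P10, 3 higher in P21 and 8 higher in WT. Except in WT, these shares were near those of all genes called, 15.8% in P10 against WT at 16 DAS, and with age 31% in P10, 23.7% in P21 and 36% in WT. At 9 DAS only GSTU27 was higher, by 0.83 in P10 (adjusted p = 0.0468) and 1.21 in P21 (adjusted p = 0.0011) on the log2 scale. Against WT at 9 DAS, 0.339% of all genes were called in P10 and 5.39% in P21. The median of the 15 genes was -0.26 in P10 and -0.21 in P21 against WT at 16 DAS.

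Across the 16 libraries, GSTF2, GSTF7 and GSTF8 ran together, with a Pearson correlation of log2 CPM of 0.954 between GSTF2 and GSTF7, 0.897 between GSTF2 and GSTF8 and 0.903 between GSTF7 and GSTF8. GSTF6 and its near copy GSTF7 had -0.462, and GSTF9 and GSTF10 had 0.377. Among 11647 genes at 10 CPM or more, the closest to GSTF2 were the HSP90 genes HSP81-3 (0.962) and HSP81-2 (0.953) and the locus AT3G09440 (0.957), and the closest to GSTF8 was ACS10 (0.957). BCAT4, of the glucosinolate pathway, was among the 3 closest to GSTF11 (0.881), and GSTU20 among those to GSTF9 (0.809). For GSTF6 the closest was AT5G63410 (0.886) and for GSTF10 AT5G18130 (0.887). These are descriptions over libraries that share genotype, age, depth and index, and carry no test.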

How the data were processed

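Leaf RNA libraries (TruSeq Stranded mRNA, 50-base paired reads) were mapped by the authors to TAIR10 with CLC Genomics Workbench at default settings. The authors deposited per gene unique read counts, total read counts and RPKM. The deposited RPKM values equal total gene reads divided by gene region length and library total, which was checked for 100% of values to a relative tolerance of 0.001. The tables also hold normalized values, fold changes and p-values of the authors' own comparisons, and these were not used. In all, 411 columns of per-sample values were not used. Each column name carries 1 lane, while the labels list reads of both lanes. The lane named was the same for all analysed libraries except P21 replicate 2 at 9 DAS. Whether the counts pool both lanes was not settled. Unique reads were 93.6 to 95.62% of total reads, and a floor of 3 counts corresponds to 0.745 to 2.46 CPM per library.

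Unique counts were tested with edgeR 4.0.16 in R 4.3.3 (filterByExpr, TMM, robust quasi-likelihood fit, 1 mean for each genotype and day), with Benjamini-Hochberg adjustment over 16499 genes, 12143 being removed as low. SE is the log2 fold change divided by the root of the F statistic. Ratios of pooled reads have exact 95% intervals. Alternatives were other scalings, filters and fits, DESeq2 1.42.0, limma 3.58.1 on log2 RPKM, a replicate block and leaving out each library. All 8 genes are described, with the further phi genes, and of each other list up to 2 called genes with the largest change per comparison. Members and lists were chosen with earlier results of these data known. The upstream window of GSTF6 is not reported here.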

Additional observations from a re-analysis of the deposited data

Results flagged for a closer look

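The change between 9 and 16 DAS differed between a line and WT, by the interaction test of edgeR with Benjamini-Hochberg adjustment over all genes, for 7 values. In P10 against WT the difference of the log2 changes was -1.73 for GSTF2 (adjusted p = 0.0102), -8.06 for GSTF7 (adjusted p = 0.0162), -0.85 for GSTF8 (adjusted p = 0.0460), -0.82 for GSTF9 (adjusted p = 0.0430) and -1.60 for GSTF11 (adjusted p = 0.0488). The GSTF7 value is a fitted size that depends on the prior count, since WT had no read at 9 DAS. GSTF7 was tested only because of its reads at 16 DAS in P21 and WT, so its value is a description. Without P10 replicate 1 at 9 DAS it did not pass (adjusted p = 0.140). The P10 values of GSTF8, GSTF9 and GSTF11 were lost in most alternatives, called in 8, 10 and 3 of 27. In P21 against WT the difference was -1.0 for GSTF9 (adjusted p = 0.0354) and -2.22 for GSTF11 (adjusted p = 0.0185). The P21 value of GSTF9 was called in 16 of 27 alternatives. In P21 at both days the library index was shared, whereas in P10 and in WT the index changed with age. For the P21 values the index therefore cannot be told apart from the difference between P21 and WT.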

How the results depend on the processing

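The tally covers member fold changes that were called in the main fit or chosen for reporting. Of 549 recomputed under the alternatives other than leaving out a library, 472 kept their direction and side of the thresholds. Of 800 with 1 library left out, 736 did. The remaining 27 results gave 720 recomputed values, of which 47 changed sign and none passed the thresholds. The number of genes whose change with age differed between P10 and WT depended most on the fit: from 5 it went to 3 with DESeq2 size factors, 3 with no low-count filter, and 2 with upper-quartile factors, with only the groups compared, with each of the 3 limma fits on log2 RPKM, and with P10 and WT at 9 DAS limited to replicates 1 and 3. DESeq2 called 1 member in P10 against WT at 9 DAS and 1 in P21 against WT at 16 DAS, where fitting only the groups compared also called 1. That fit called 0 members between the days in P10. Leaving out 1 library gave 0 to 1 called members between the days in P10, 2 to 4 between P10 and P21 at 16 DAS, and 1 to 4 in P10 and 0 to 2 in P21 where the change with age was set against that of WT. The change of GSTF8 with age in P10 was near 0 and took either sign, 0.00633 with no filter and -0.109 to 0.097 with 1 library left out. Against TMM, the median of all genes moved by up to -0.382 between the days and 0.231 between P10 and P21 at 16 DAS on log2 RPKM, and by up to -0.172 with upper-quartile factors. The causes were not tested.

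Replicate numbers did not pair the samples consistently: same-numbered libraries had correlations of their deviations between -0.263 and 0.467. The replicate 2 libraries at 9 DAS all correlated positively, 0.467 for P10 and WT, 0.218 for P10 and P21 and 0.204 for P21 and WT. Libraries of different number reached 0.524 at that day, P10 replicate 1 with WT replicate 3. With a replicate block within each day, 1 member was called in P10 against WT at 9 DAS, 1 in P10 against P21 at 9 DAS, 2 between the days in P21 and 2 for the difference in change between P10 and WT, and GSTF10 between the days in P21 became 0.0195 on the log2 scale. The calls lost there included those of GSTF7 (adjusted p = 0.627) and GSTF8 (adjusted p = 0.327) between the days in P21, GSTF8 between the days in WT (log2 0.69) and GSTF10 between P10 and P21 at 16 DAS (log2 0.72). GSTF3 and GSTF7 rest on few reads, and at this depth a level below the floor of 3 reads could not be told from 0.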

Other observations

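Outside the phi and tau classes, glutathione genes were called in P10 against WT at 16 DAS at a share near the 15.8% of all genes. Of 10 tested genes of other transferase classes 2 were higher and none lower, DHAR1, which regenerates ascorbate, by 1.44 and TCHQD by 1.15 on the log2 scale. Of 9 tested genes of glutathione supply and conjugate removal only GGT4, which breaks down glutathione conjugates in the vacuole, was higher, by 1.92. DHAR1 and GGT4 were each higher by 0.93 in P21 than in WT at 9 DAS. Of the 4 tested salicylic acid and defense genes 1, PR5, was called lower in P10 than in WT at 16 DAS, with 1 unique read over the 3 P10 libraries against 119 over the 3 WT libraries.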
